A study of Mus musculus with 10 samples.

Results

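The nuclear genes that encode the subunits of the mitochondrial respiratory chain and of ATP synthase were examined in mouse small intestine organoids. They were chosen by symbol, as all measured genes whose name begins with Nduf followed by a, b, c, s or v (complex I and its assembly factors), with Uqcr (complex III), with Cox and a digit from 4 to 8 (complex IV) or with Atp5 (ATP synthase, complex V), together with Sdha, Sdhb, Sdhc and Sdhd (complex II), Cyc1 (complex III) and Cycs (cytochrome c). The rule found 95 genes among 19505 measured, each with 1 probe set, and it used no expression value. Among them 8 are assembly factors of complex I, which build the complex and are not part of it, and 7 are isoforms of complex IV subunits that are known mainly from muscle, testis or lung.

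The organoids, epithelial cultures grown in a basement membrane gel from BALB/c small intestine, were all exposed to 20 ng/ml recombinant murine TNF, an inflammatory cytokine. In the vehicle group (5 arrays) the culture also held 2.625 mM PEG, and in the pegtarazimod group (5 arrays) it held pegtarazimod at 5 mg/ml, a synthetic peptide joined to PEG that is studied as an inhibitor of complement and of myeloperoxidase. Both groups were taken after 48 h, so the comparison shows pegtarazimod against PEG in cells that all received TNF. There was no group without TNF. The labels do not say whether the PEG of the vehicle matches the amount of PEG in the pegtarazimod cultures. The design text calls the 5 samples of a group biological replicates and does not say whether they came from separate mice, passages or wells, so p-values measure only the spread between these samples. All values are log2 expression, in which 1 unit is a doubling, differences are pegtarazimod minus vehicle, and a gene is said to have risen or fallen where its limma p, adjusted by the Benjamini-Hochberg method over all 19505 genes, was below 0.05.

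Complexes I and II pass electrons from NADH and succinate to ubiquinone, complex III passes them on to cytochrome c, and complex IV hands them to oxygen. Complexes I, III and IV pump protons across the inner mitochondrial membrane, and ATP synthase makes ATP as the protons flow back. Most subunits are encoded in the nucleus and their transcripts often vary together, while a small set is encoded in mitochondrial DNA; the latter were not analysed here. In the intestine, absorptive cells of the villus are known to rely on oxidative phosphorylation, and stem cells of the crypt base also hold active mitochondria.

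Array medians over all genes lay between 5.60 and 5.66, and pairs of arrays correlated over all genes at 0.989 to 0.994 in the vehicle group, at 0.983 to 0.992 in the pegtarazimod group and at 0.973 to 0.991 across groups. Replicates 1 and 2 of each group stood apart from replicates 3 to 5, and the labels name no batch. Epithelial markers were bright, with Epcam at 10.63 to 10.85 over the 10 arrays, and their summed level was 13.11 to 13.30 (log2) in vehicle and 13.11 to 13.29 in pegtarazimod. Of 8 measured markers of immune, stromal, endothelial and muscle cells 1 (Vim) rose, Des and Actg2 were below the lower quartile of every array, and their summed level was 7.95 to 8.18 in vehicle and 8.12 to 8.41 in pegtarazimod. All arrays had been normalised to nearly the same distribution of values, so these values cannot show a shift that most genes share.

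Nearly all respiratory chain and ATP synthase genes had slightly higher values with pegtarazimod than with vehicle. The difference was positive for 87 of the 95 genes and negative for 8, beside 50.7% positive over all genes and 46.3% over genes at or above the median level, where most of the set lies. Its median was 0.23, which is 17.4% higher on the linear scale, with quartiles at 0.14 and 0.31 and extremes at −0.18 (Ndufaf2) and 0.49 (Sdhb). The median over all genes was 0.00 and over genes at or above the median level −0.02.

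Tested singly, 10 of the 95 genes rose (10.5%) and 0 fell, beside 4.89% of all genes that passed in either direction, 2.5% that rose and 2.39% that fell. Of genes at or above the median level, 4.41% rose. The 10 were Sdhb, Uqcrq, Cox7a2l, Ndufb11, Sdha, Cox4i1, Ndufb9, Atp5c1, Cox6c and Atp5o, and each of complexes I to V had at least 1 of them. At an unadjusted limma p below 0.05, 50 of the 95 were higher and 0 lower, beside 9.31% and 9.65% of all genes. In 21 of the 95 every pegtarazimod array was above every vehicle array, and in 0 every one was below, beside 3.35% and 3.36% of all genes. The median standard error over the set was 0.10, beside the median difference of 0.23, and the number of arrays limited the precision. The count of genes that rose moved with the array left out, and so did the share of all genes called in either direction. It was 17 without pegtarazimod 4 (17.9% of the set, beside 6.38% of all genes), 9 without pegtarazimod 3 (9.47%, beside 4.59%) and 8 without vehicle 1 (8.42%, beside 4.28%). It was 5 without vehicle 2 or without pegtarazimod 5 (5.26%, beside 3.48% and 4.1%), 4 without vehicle 5 (4.21%, beside 2.88%) and 3 without pegtarazimod 1 or without pegtarazimod 2 (3.16%, beside 2.83% and 2.68%). Without vehicle 3 or without vehicle 4 it was 2. The set's share (2.11%) was then below that of all genes called in either direction (2.24% and 2.55%). Of those calls over all genes, 52.6% and 52.4% were higher with pegtarazimod. Under the same omissions 84 to 90 of the 95 differences were positive and their median was 0.20 to 0.26. In bulk RNA such as this, fewer cells of a type and less RNA per cell cannot be told apart.

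**Figure D1:**
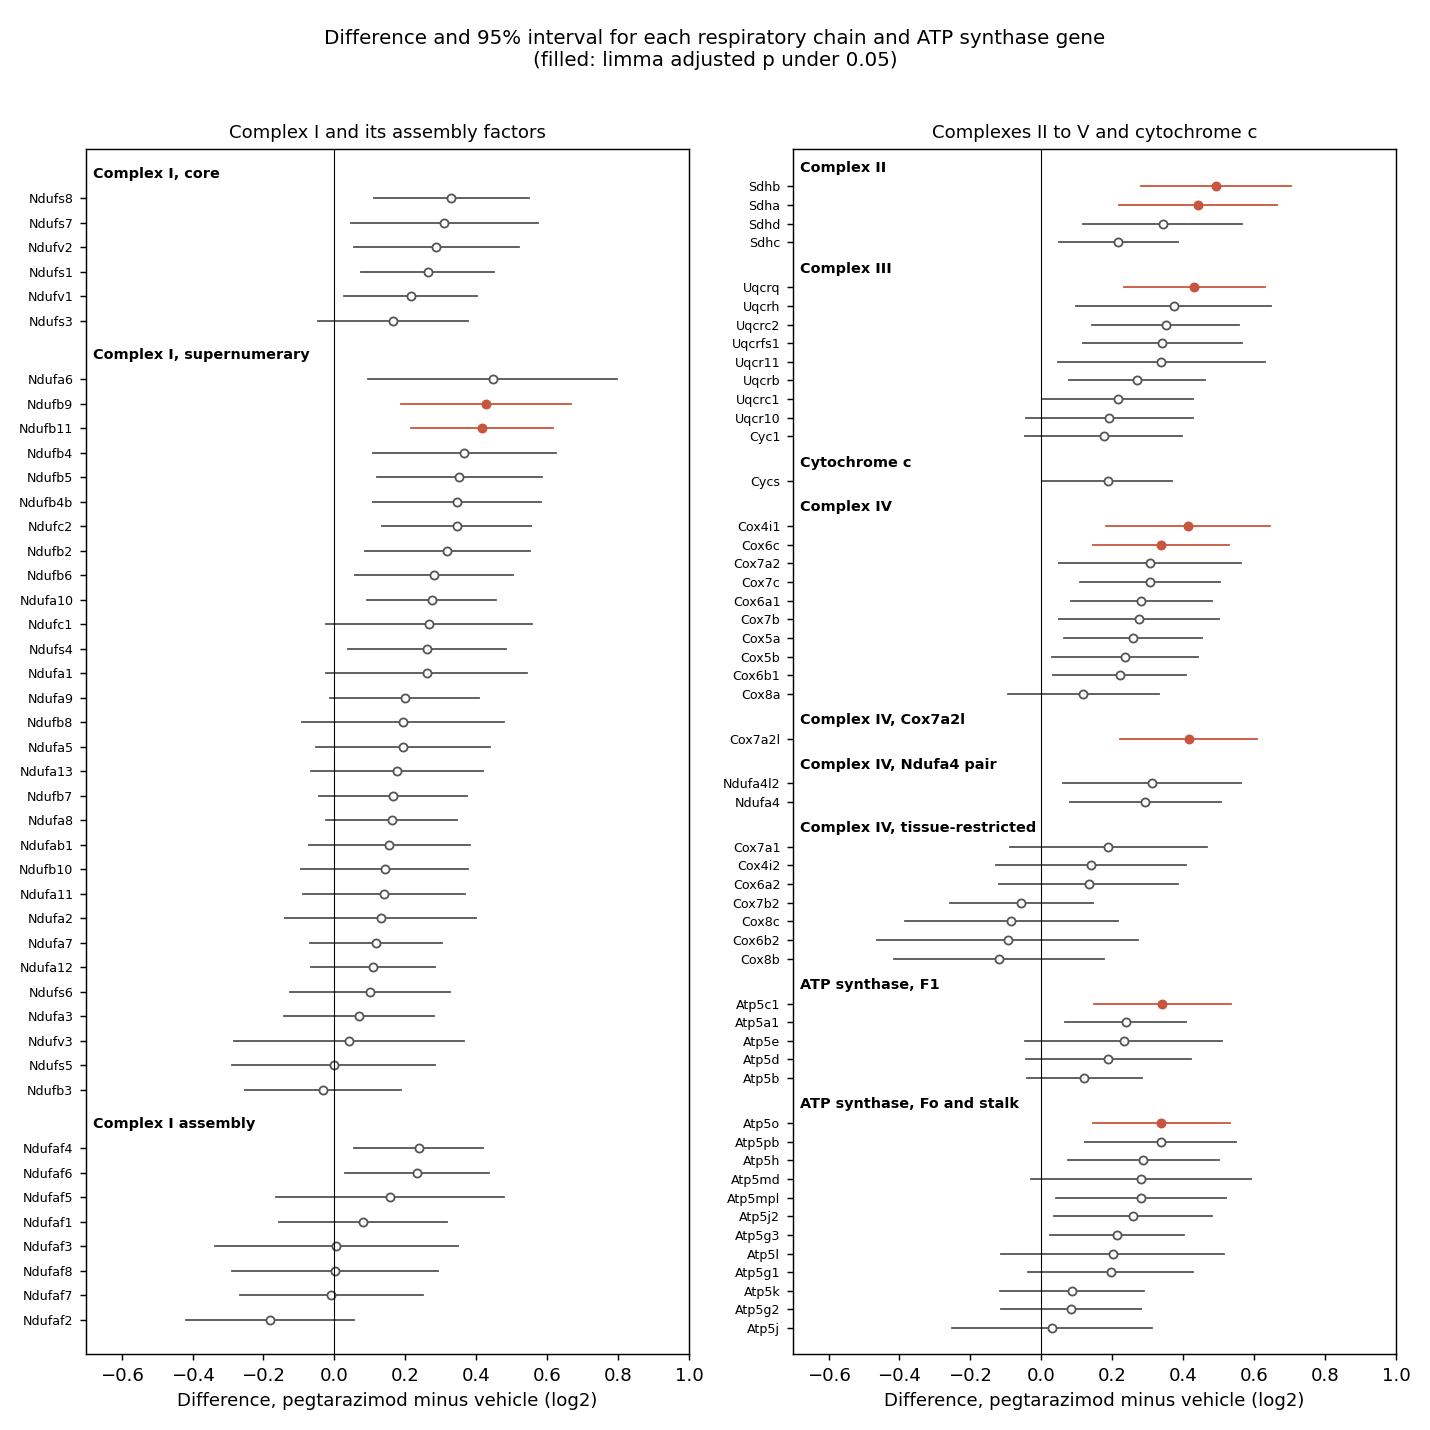
Each point is the difference of 1 gene, pegtarazimod minus vehicle, in log2 units (horizontal axis), with its 95% interval from limma over 5 arrays a group; genes are grouped by complex and filled red where the adjusted p was below 0.05. Nearly all points lie to the right of 0, from −0.18 for Ndufaf2 to 0.49 for Sdhb, and the 10 filled points are spread over complexes I to V. The assembly factors run from −0.18 to 0.24 with a median of 0.04, and the tissue-restricted isoforms of complex IV from −0.12 to 0.19 with a median of −0.06.

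Per array, the set was summarised as the median over its genes of the value minus that gene's vehicle mean, so that vehicle arrays lie around 0 by construction. Over all 95 genes the vehicle arrays 1 to 5 gave 0.04, −0.01, 0.04, 0.01 and −0.08. The pegtarazimod arrays 1 to 5 gave 0.25, 0.35, 0.15, 0.12 and 0.30. All 5 pegtarazimod arrays were above all 5 vehicle arrays, with pegtarazimod 2 and 5 highest and pegtarazimod 3 and 4 closest to vehicle. The same arrays stood at the ends gene by gene: pegtarazimod 2 and 5 were the highest of their group for 38 and 29 of the 95 genes, and pegtarazimod 3 and 4 the lowest for 34 and 39. Vehicle 5 was the lowest vehicle array for 44 of the 95. The median over all 19505 genes stayed between −0.01 and 0.01 on every array.

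**Figure D2:**
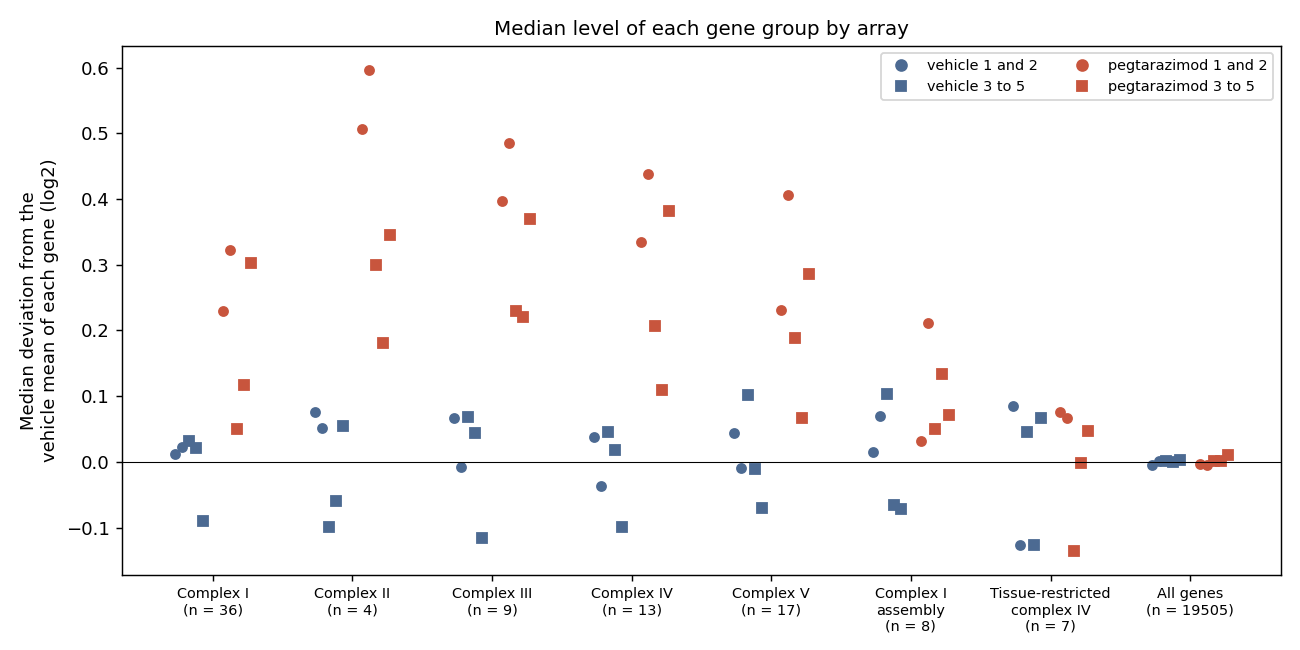
For each gene group (horizontal axis, with the number of genes) each symbol is 1 array, at the median over the group's genes of the log2 value minus that gene's vehicle mean (vertical axis); blue is vehicle, red is pegtarazimod, circles are replicates 1 and 2 and squares replicates 3 to 5. The pegtarazimod arrays lie above the vehicle arrays for complexes I to IV, overlap with them for complex V through pegtarazimod 4 at 0.07, and overlap for assembly factors and tissue-restricted isoforms, while the medians over all genes stay within −0.01 and 0.01.

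Upstream sequences are shown for 6 genes, as examples of where known motifs lie. Sdhb, Sdha and Cox7a2l rose, and Sdhd, Ndufb4 and Atp5g2 did not pass the test. The 6 were picked from genes that rose or that carried a match to the motif of nuclear respiratory factor 1. Those shown that did not pass therefore all carry such a match. Atp5c1 and Atp5o, which rose and carry one as well, are not shown, so the 6 do not compare genes that rose with others. The sequences are from RefSeq on GRCm38.p6, end at the base before the annotated start of transcription and run 5′ to 3′ along the gene; capitals mark matches to the motifs described after them. Sdhb lies on the plus strand (chr4:140961151-140961270), and the others on the minus strand: Sdha (chr13:74350241-74350316), Cox7a2l (chr17:83514334-83514453), Sdhd (chr9:50603850-50603900), Ndufb4 (chr16:37654369-37654488) and Atp5g2 (chr15:102671048-102671167). Those of Sdha and Sdhd are cut short where the neighbouring genes Ccdc127 and Timm8b begin.
Sdhb: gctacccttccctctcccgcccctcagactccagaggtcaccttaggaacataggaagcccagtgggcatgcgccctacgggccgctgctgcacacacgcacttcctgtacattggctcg
Sdha: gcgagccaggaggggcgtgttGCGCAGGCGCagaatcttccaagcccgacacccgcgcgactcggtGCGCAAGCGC
Cox7a2l: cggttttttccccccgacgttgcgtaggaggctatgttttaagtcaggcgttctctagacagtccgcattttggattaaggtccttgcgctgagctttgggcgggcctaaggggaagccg
Sdhd: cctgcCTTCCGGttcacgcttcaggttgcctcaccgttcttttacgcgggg
Ndufb4: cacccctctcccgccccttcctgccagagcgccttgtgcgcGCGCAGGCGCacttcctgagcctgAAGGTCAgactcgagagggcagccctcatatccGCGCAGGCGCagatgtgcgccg
Atp5g2: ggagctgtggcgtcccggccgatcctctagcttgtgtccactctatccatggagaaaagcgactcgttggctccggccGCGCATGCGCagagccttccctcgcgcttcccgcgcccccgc
Sdha carried 2 matches to the motif of nuclear respiratory factor 1 in the stretch shown, starting 55 and 10 bases before its start, and Ndufb4 carried 2 such matches and 1 to the motif of the estrogen-related receptors. Sdhd carried 1 match to the ETS motif and Atp5g2 carried 1 to that of nuclear respiratory factor 1. Sdhb and Cox7a2l held none of the motifs in the stretches shown, but Sdhb held an ETS match that began at base 7 after its start. Beyond the stretches shown, Sdha and Ndufb4 each held 1 more match for nuclear respiratory factor 1, which began 98 and 191 bases before the start. Sdhd held 1 there too, 79 bases before the start, and 1 for the estrogen-related receptors at base 37 after it.

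The search covered 5 motifs on both strands, from 250 bases before to 50 bases after each annotated start, in the 78 of 95 genes with an entry in the promoter table. The motif of nuclear respiratory factor 1 (NRF1), spelled as GCGCA, any base and GCGC, was in 24.4% of the 78, beside 7.63% of the 15691 measured genes with an entry and 5.19% of all 27025 genes in the table. The ETS motif, which GABP binds (CCGGAAG), was in 24.4%, beside 13.2% and 9.93%. The YY1 motif (AAGATGGC) was in 14.1%, beside 3.64% and 3.19%, the motif of the estrogen-related receptors (AAGGTCA) in 10.3%, beside 4.57% and 5.38%, and the CREB motif (TGACGTCA) in 6.41%, beside 2.63% and 2.03%. No spelling contains another, though some can share their end letters. At least 1 of the 5 was present in 46 of the 78 genes (59.0%), beside 27.2% and 22.4%. A match is a description of letters and not a binding site.

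The 19 genes with an NRF1 motif had a median difference of 0.22, as did the 59 without, and 3 of the 19 and 3 of the 59 had risen. For the ETS motif the medians were 0.23 in 19 genes with a match, of which 1 had risen, and 0.21 in 59 without, of which 5 had. The 11 genes with a YY1 motif had a median of 0.20, beside 0.22 in the 67 without, and the 5 with a CREB motif had 0.27, beside 0.22 in the 73 without. For the motif of the estrogen-related receptors the median was 0.22 in the 8 genes with a match and in the 70 without. For each of these last 3 motifs, 0 genes with a match and 6 without had risen. The counts stand beside 2.5% of all genes that rose, a share so low that 0 among 11, 8 or 5 genes says nothing about a motif. These medians and counts carry no test.

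Complex II, succinate dehydrogenase, had the highest median of the complexes, 0.39 over its 4 subunits, with differences from 0.22 to 0.49; differences between complexes were not tested. Sdhb, which holds the iron-sulphur clusters of the enzyme, read 8.80, 8.86, 8.62, 8.62 and 8.82 on vehicle arrays 1 to 5 and 9.38, 9.41, 9.07, 9.07 and 9.25 on pegtarazimod arrays 1 to 5. Every pegtarazimod array was above every vehicle array. Sdhb rose from 8.74 ± 0.11 to 9.24 ± 0.16 (SD, n = 5 each), a difference of 0.49 (SE 0.10, 1.41-fold, adjusted p 0.0119).

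Sdha, the flavoprotein that oxidises succinate, read 8.81, 8.87, 8.47, 8.68 and 8.72 in vehicle and 9.23, 9.31, 9.22, 8.90 and 9.10 in pegtarazimod. Its groups did not overlap, vehicle 3 was lowest, and pegtarazimod 4 came within a few hundredths of vehicle 2. Sdha rose by 0.44 (SE 0.10, 1.36-fold, adjusted p 0.0274). The call for Sdhb held without any 1 array (highest adjusted p 0.0441, without vehicle 3). That for Sdha ended without vehicle 3, 4 or 5 or without pegtarazimod 1, 2 or 3 (up to 0.0825, without vehicle 3). Sdhd and Sdhc, which anchor the enzyme in the membrane, did not pass, at 0.34 (adjusted p 0.0806) and 0.22 (0.135), and Sdhc had groups that did not overlap. Over the 4 genes the array medians were −0.10 to 0.08 in vehicle and 0.18 to 0.60 in pegtarazimod, with pegtarazimod 1 and 2 at 0.51 and 0.60 above the other arrays.

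**Figure D3:**
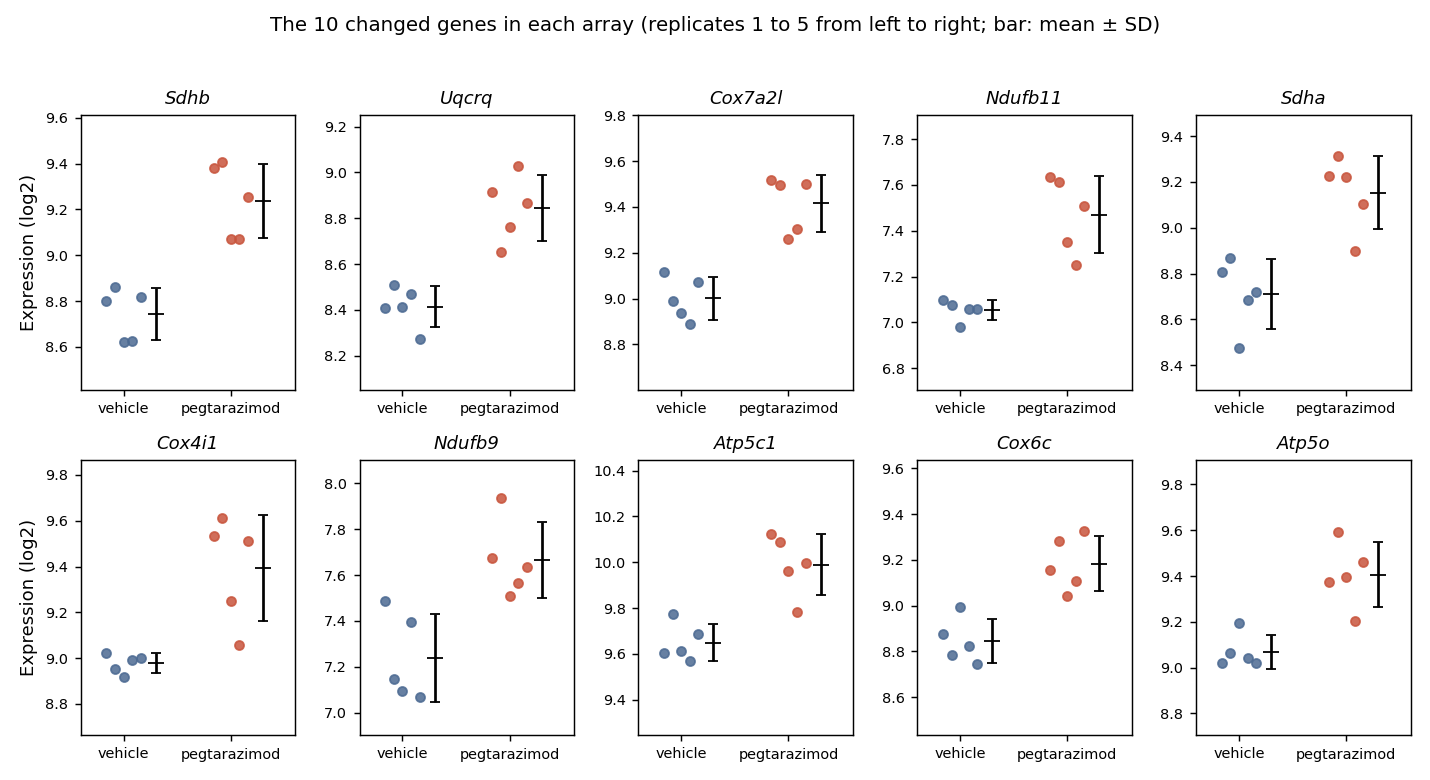
Each panel shows 1 of the 10 genes that rose, with the log2 expression of each array (vertical axis; panels span the same number of log2 units but start at different levels), vehicle in blue and pegtarazimod in red, replicates 1 to 5 from left to right; the bar is the mean ± SD of 5 arrays. The groups do not overlap in any panel, and the gap is narrowest where pegtarazimod 3 or 4 is low, as in Cox4i1, Atp5c1 and Atp5o.

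Complex III, the cytochrome bc1 complex, had positive differences for all 9 of its genes, from 0.18 to 0.43 with a median of 0.34. Uqcrq, a small subunit next to cytochrome b, read 8.41, 8.51, 8.41, 8.47 and 8.27 in vehicle and 8.92, 8.65, 8.76, 9.03 and 8.87 in pegtarazimod, where pegtarazimod 2 was lowest and pegtarazimod 4 highest. Its groups did not overlap. Uqcrq rose by 0.43 (SE 0.09, 1.35-fold, adjusted p 0.0172), and the call held without any 1 array (up to 0.0498, without vehicle 3).

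The core protein Uqcrc2 was next by p, at 0.35 with groups that did not overlap (adjusted p 0.0544), followed by the Rieske iron-sulphur protein Uqcrfs1 at 0.34 (0.0819). Uqcrh, the hinge protein, stood at 0.37 (0.119), Uqcr11 at 0.34 (0.190) and Uqcrb at 0.27 (0.107). The lower end was held by Uqcrc1 at 0.22, Uqcr10 at 0.19 and Cyc1, the cytochrome c1 haem protein, at 0.18 (adjusted p from 0.254 to 0.399). At an unadjusted p below 0.05, 7 of the 9 were higher, beside 9.31% of all genes. Array medians were −0.12 to 0.07 in vehicle and 0.22 to 0.49 in pegtarazimod.

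Cytochrome c (Cycs), the soluble carrier between complexes III and IV, read 9.67, 9.59, 9.65, 9.66 and 9.44 in vehicle and 9.76, 9.87, 9.70, 9.87 and 9.73 in pegtarazimod. The groups did not overlap, but the gap between vehicle 1 and pegtarazimod 3 was narrow. The difference of 0.19 (95% interval 0.01 to 0.37, adjusted p 0.247) did not pass.

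Complex IV, cytochrome c oxidase, has some subunits with tissue-restricted isoforms. Its 13 genes other than those isoforms all had positive differences, with a median of 0.29. Of these, 12 were higher at an unadjusted p below 0.05, beside 9.31% of all genes. The adjusted threshold was passed by 3 (23.1%), beside 2.5% of all genes that rose. In 5 every pegtarazimod array was above every vehicle array, beside 3.35% of all genes. Cox4i1, the largest nuclear subunit, read 9.02, 8.95, 8.92, 8.99 and 9.0 in vehicle and 9.53, 9.61, 9.25, 9.06 and 9.51 in pegtarazimod. The vehicle arrays were close together (SD 0.04) and pegtarazimod 4 lay just above them. Cox4i1 rose by 0.41 (SE 0.11, 1.33-fold, adjusted p 0.0412).

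Cox7a2l, which links complexes III and IV into supercomplexes, read 9.12, 8.99, 8.94, 8.89 and 9.07 in vehicle and 9.52, 9.50, 9.26, 9.30 and 9.50 in pegtarazimod. Cox6c, a small membrane subunit, read 8.87, 8.78, 8.99, 8.83 and 8.74 in vehicle and 9.16, 9.28, 9.04, 9.11 and 9.33 in pegtarazimod. Neither gene's groups overlapped, and for Cox6c vehicle 3 came close to pegtarazimod 3. Cox7a2l rose by 0.42 (SE 0.09, 1.33-fold, adjusted p 0.0176) and Cox6c by 0.34 (SE 0.09, 1.26-fold, adjusted p 0.0437). The call for Cox7a2l ended without vehicle 3 or vehicle 4 (up to 0.0583). Those for Cox4i1 and Cox6c ended without any array other than pegtarazimod 3 and 4 (up to 0.110 without vehicle 3 and up to 0.112 without pegtarazimod 2). Repeated quantile normalisation also ended them, at 0.0608 and 0.0738.

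The other 8 of these subunits with Cox symbols ran from Cox7a2 at 0.31 (groups separate, adjusted p 0.176) and Cox7c at 0.31 (0.0767) through Cox6a1, Cox7b, Cox5a, Cox5b and Cox6b1 (groups separate) at 0.22 to 0.28 to Cox8a at 0.12 (0.594). Ndufa4, first found with complex I and now counted to complex IV, read 8.55, 8.46, 8.73, 8.63 and 8.47 in vehicle and 8.70, 8.94, 8.86, 8.71 and 9.09 in pegtarazimod. Its groups overlapped, since vehicle 3 was above pegtarazimod 1 and 4. The difference was 0.29 (adjusted p 0.113), and that of its paralogue Ndufa4l2, below the median of all arrays, was 0.31 (0.156). Array medians of the 13 genes were −0.10 to 0.05 in vehicle and 0.11 to 0.44 in pegtarazimod.

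The 7 tissue-restricted isoforms of complex IV lay around 0, with 3 positive and 4 negative differences and a median of −0.06. Of the 7, 0 were at an unadjusted p below 0.05 and 0 past the adjusted threshold in limma. Of these, 5 (Cox4i2, Cox6b2, Cox7a1, Cox7b2 and Cox8b) were below the median of every array, and Cox7b2, known from testis, was below the lower quartile of every array, at 2.71 to 3.0 in vehicle and 2.63 to 2.93 in pegtarazimod. Signal this low cannot be told from background, and a difference there may be understated.

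The muscle isoform Cox7a1 read 5.21, 4.98, 5.09, 4.79 and 5.22 in vehicle and 5.52, 5.52, 5.16, 4.96 and 5.07 in pegtarazimod, so that the groups overlapped (difference 0.19, adjusted p 0.487). Cox8b, also known from muscle, read 4.13, 3.73, 4.22, 3.92 and 4.23 in vehicle and 4.30, 4.11, 3.65, 3.84 and 3.74 in pegtarazimod. Its difference was −0.12 over all arrays (adjusted p 0.721), 0.28 within replicates 1 and 2 and −0.38 within replicates 3 to 5. Cox4i2, an isoform of lung, lay at 4.86 to 5.41 in vehicle and 5.02 to 5.54 in pegtarazimod, and Cox6a2, of muscle, at 5.80 to 6.33 and 6.08 to 6.45. Cox8c lay at 5.31 to 5.51 and 4.96 to 5.81, and Cox6b2, of testis, at 4.38 to 4.88 and 4.10 to 5.06. In all 4 genes the groups overlapped. Their differences were 0.14, 0.13, −0.08 and −0.10 and that of Cox7b2 was −0.06, with adjusted p from 0.618 to 0.830.

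Complex I, the NADH dehydrogenase, is the largest of the complexes. Of its 36 subunits 34 had positive differences, with a median of 0.21 and a range of −0.03 to 0.45. At an unadjusted p below 0.05, 16 were higher, beside 9.31% of all genes. The adjusted threshold was passed by 2 (5.56%), beside 2.5% of all genes and 4.41% of genes at or above the median level. The array medians were 0.01, 0.02, 0.03, 0.02 and −0.09 in vehicle 1 to 5 and 0.23, 0.32, 0.05, 0.12 and 0.30 in pegtarazimod 1 to 5. The groups were separate, with pegtarazimod 3 only just above vehicle 3.

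The 6 measured core subunits, which carry out the electron transfer from NADH to ubiquinone, ranged from 0.17 to 0.33 with a median of 0.28. Of the 6, 5 were higher at an unadjusted p below 0.05, beside 9.31% of all genes. Ndufs8, which binds iron-sulphur clusters near the ubiquinone site, read 7.26, 7.39, 7.23, 7.49 and 7.35 in vehicle and 7.78, 7.72, 7.38, 7.64 and 7.85 in pegtarazimod. Pegtarazimod 3 lay within the vehicle range. The difference of 0.33 (95% interval 0.11 to 0.55) had an adjusted p of 0.0833. Ndufs7, Ndufv2, Ndufs1, Ndufv1 and Ndufs3 followed at 0.31, 0.29, 0.26, 0.22 and 0.17, and of the 6 core subunits Ndufs1 alone had groups that did not overlap.

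Among the 30 supernumerary subunits, which surround the core and support its assembly and stability, the median was 0.19 and 28 were positive. Ndufb11, in the membrane arm, read 7.10, 7.08, 6.98, 7.06 and 7.06 in vehicle and 7.63, 7.61, 7.35, 7.25 and 7.51 in pegtarazimod. Ndufb9, also of the membrane arm, read 7.49, 7.15, 7.09, 7.40 and 7.07 in vehicle and 7.68, 7.94, 7.51, 7.57 and 7.64 in pegtarazimod. Both had separate groups, with a vehicle spread for Ndufb11 (SD 0.04) far below that for Ndufb9 (SD 0.19).

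Ndufb11 rose by 0.42 (SE 0.09, 1.34-fold, adjusted p 0.0216) and Ndufb9 by 0.43 (SE 0.11, 1.34-fold, adjusted p 0.0427). The call for Ndufb11 ended without vehicle 3 or 4 or without pegtarazimod 1 or 2 (up to 0.0691, without vehicle 3). That for Ndufb9 ended without vehicle 2, 3, 4 or 5 or without pegtarazimod 1, 2 or 5 (up to 0.123, without vehicle 3). Ndufa6 had the highest difference of complex I, 0.45, with a wider spread (adjusted p 0.146). Ndufc2 stood at 0.34 (0.0596), Ndufb5 at 0.35 (0.0813) and Ndufa10 at 0.27 (0.0834), the last 2 with separate groups. Ndufb4 and Ndufb4b, near-identical copies whose probes may share signal, stood at 0.37 and 0.35 and count as 2 genes here. Ndufs5 at 0.00 and Ndufb3 at −0.03 had the lowest differences of complex I, and Ndufb3 was at 5.67 to 5.98 in vehicle and 5.65 to 6.07 in pegtarazimod.

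The 8 assembly factors of complex I had a median of 0.04, with 6 positive and 2 negative differences and 0 past the threshold. At an unadjusted p below 0.05, 2 of the 8 were higher, beside 9.31% of all genes. Ndufaf4, which works early in assembly, read 8.23, 8.29, 8.13, 8.25 and 8.09 in vehicle and 8.31, 8.36, 8.47, 8.49 and 8.55 in pegtarazimod. Its groups did not overlap, though by a few hundredths only, and the difference of 0.24 did not pass (adjusted p 0.131).

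Ndufaf2 had the lowest difference of the whole set, −0.18 (95% interval −0.42 to 0.05, adjusted p 0.418). It read 5.62, 5.79, 5.87, 5.67 and 5.82 in vehicle and 5.64, 5.26, 5.60, 5.503 and 5.87 in pegtarazimod, and the groups overlapped. Ndufaf6 stood at 0.23, Ndufaf5 at 0.16, Ndufaf1 at 0.08 and Ndufaf3, Ndufaf8 and Ndufaf7 within 0.01 of 0. Array medians of the assembly factors overlapped between the groups, at −0.07 to 0.10 in vehicle and 0.03 to 0.21 in pegtarazimod.

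All 17 ATP synthase genes had positive differences, from 0.03 to 0.34 with a median of 0.23. Of the 17, 8 were higher at an unadjusted p below 0.05, beside 9.31% of all genes. In the catalytic F1 part, Atp5c1, the rotating central stalk, read 9.61, 9.77, 9.61, 9.57 and 9.69 in vehicle and 10.12, 10.09, 9.96, 9.78 and 9.997 in pegtarazimod. The groups were separate only by about a hundredth, between vehicle 2 and pegtarazimod 4. Atp5c1 rose by 0.34 (SE 0.09, 1.27-fold, adjusted p 0.0432).

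Atp5a1 and Atp5b, the alternating subunits that hold the catalytic sites, stood at 0.24 (adjusted p 0.107) and 0.12 (0.440), and each had separate groups. Atp5e and Atp5d, at 0.23 and 0.19, had overlapping groups. In the membrane part and peripheral stalk, Atp5o, which joins the stalk to F1, read 9.02, 9.06, 9.19, 9.04 and 9.02 in vehicle and 9.38, 9.59, 9.40, 9.21 and 9.46 in pegtarazimod. Its groups did not overlap, with vehicle 3 just below pegtarazimod 4. Atp5o rose by 0.34 (SE 0.09, 1.26-fold, adjusted p 0.0463).

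The calls for Atp5c1 and Atp5o ended without any array other than pegtarazimod 4 (up to 0.113 without vehicle 3 and up to 0.122 without pegtarazimod 2) and under repeated quantile normalisation (0.0560 and 0.0754). Of the other stalk subunits, Atp5pb stood at 0.34 (0.0704), Atp5h at 0.29 (0.122) and Atp5j at 0.03 (0.939). The 3 genes that encode the same c subunit of the proton-driven ring, Atp5g3, Atp5g1 and Atp5g2, stood at 0.21, 0.20 and 0.08. Subunits at the dimer interface, Atp5l and Atp5k, stood at 0.20 and 0.09. The array medians of the 17 genes overlapped, at −0.07 to 0.10 in vehicle and 0.07 to 0.41 in pegtarazimod, with vehicle 3 above pegtarazimod 4.

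The difference was positive in both subsets of replicates for 82 of the 95 genes. Its median was 0.31 within replicates 1 and 2 (2 arrays a group) and 0.18 within replicates 3 to 5 (3 arrays a group), and 72 genes had the larger difference in replicates 1 and 2. In a model with the subsets fitted apart, 7 of the 95 rose within replicates 1 and 2 (Cox4i1, Ndufb11, Ndufb5, Ndufs4, Sdhb, Sdhd and Uqcr11), beside 2.93% of all genes. Within replicates 3 to 5, 2 rose (Sdhb and Uqcrq), beside 1.84%. Sdhb was at 0.56 and 0.45 in the subsets, Cox4i1 at 0.58 and 0.30, and Uqcrq at 0.32 and 0.50. The test of the difference between the subsets passed for 0 of 95 genes in limma, beside 0.0256% of all genes, and 5 of the 95 had an unadjusted p below 0.05 (Cox8b, Ndufs4, Atp5j, Uqcr11 and Ndufb5), a smaller share than the 7.65% of all genes. Ndufs4 stood at 0.53 and 0.08, and Uqcr11 at 0.68 and 0.11.

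**Figure D4:**
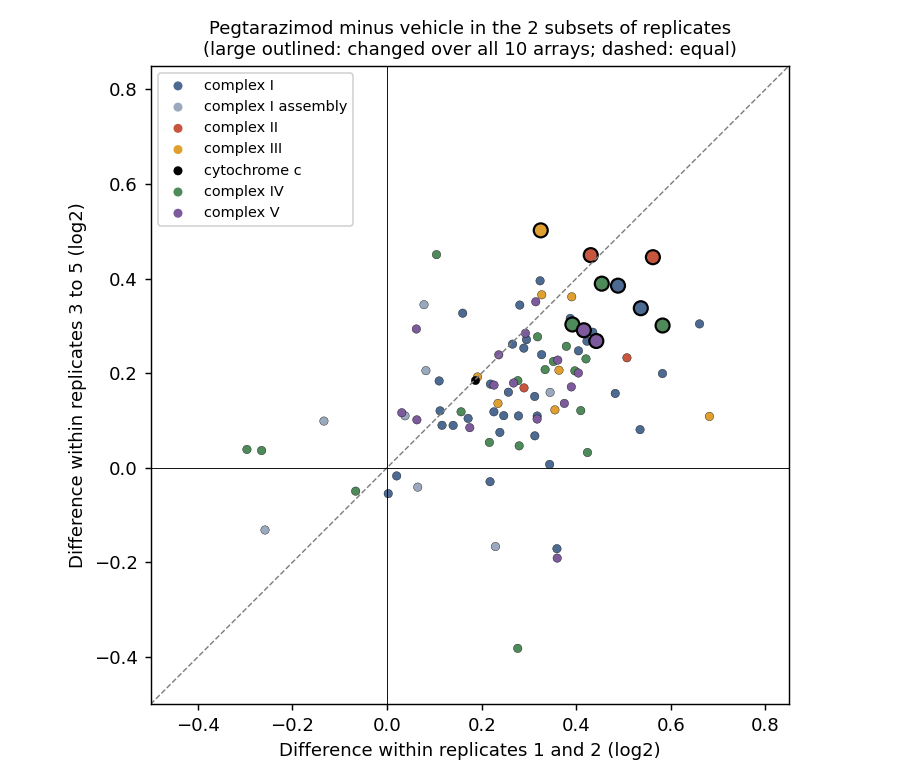
Each point is 1 of the 95 genes, placed by its difference (pegtarazimod minus vehicle, log2) within replicates 1 and 2 on the horizontal axis and within replicates 3 to 5 on the vertical axis, coloured by complex; large outlined points are the 10 genes that rose over all arrays, and the dashed line marks equal differences. Of the 95 points 82 lie above 0 on both axes, 72 lie below the dashed line, and Cox8b stands apart at 0.28 and −0.38.

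Cell type markers moved in the same comparison, in which 2.5% of all genes rose and 2.39% fell. Of 12 enterocyte markers 4 rose (Fabp1, Fabp2, Anpep and Mttp) and 0 fell, with a summed level of 13.11 to 13.60 in vehicle and 13.58 to 14.53 in pegtarazimod. Of 9 stem cell markers 7 fell, Lgr5 among them, and their summed level was 13.04 to 13.19 in vehicle and 11.65 to 12.55 in pegtarazimod. Of 9 markers of cycling cells 5 fell (12.84 to 12.97 and 12.07 to 12.70). Goblet cell markers rose for 6 of 7 (10.43 to 10.98 and 11.39 to 11.73). Of 6 Paneth cell markers 3 fell (11.33 to 12.25 and 10.50 to 11.70), of 5 enteroendocrine markers 2 rose and 1 fell (10.94 to 11.47 and 11.54 to 11.96), and the 4 tuft cell markers had a median difference of −0.02, with Trpm5 below the lower quartile of every array (6.81 to 7.24 and 6.71 to 7.27). Fabp1, the fatty acid binding protein of enterocytes, was at 10.93 and 10.21 in pegtarazimod 1 and 2 and at 8.12 to 8.74 in pegtarazimod 3 to 5, with vehicle at 6.28 to 7.88. Their part in the differences of the respiratory genes was not tested.

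Genes that work around the chain were read from lists by function. The counts of each list stand beside 2.5% of all genes that rose and 2.39% that fell. Among 9 genes listed as other electron donors, 3 rose and 0 fell, with a median of 0.31. Not all of them pass electrons straight to ubiquinone, and Suox (−0.29) is among the exceptions. Sqor, which oxidises hydrogen sulphide, read 7.34, 7.33, 7.18, 7.49 and 7.28 in vehicle and 7.92, 8.20, 7.78, 7.80 and 7.81 in pegtarazimod, with no overlap. It rose by 0.58 (SE 0.10, 1.49-fold, adjusted p 0.00553), and the call held without any 1 array. Etfa and Etfdh, which carry electrons from fatty acid oxidation, rose by 0.48 (adjusted p 0.0329) and 0.38 (0.0360), with separate groups. Both calls ended without vehicle 2, 3, 4 or 5 or without pegtarazimod 1 or 2 (up to 0.0924 and 0.106, without vehicle 3), and that of Etfdh also without pegtarazimod 3. Chdh, choline dehydrogenase, stood at 0.41 (0.102).

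Among 12 genes of ubiquinone synthesis all had positive differences, with a median of 0.14, and 2 rose. Coq8a, a kinase-like protein of the pathway, rose by 0.58 (adjusted p 0.0172), and the call held without any 1 array. The methyltransferase Coq5 rose by 0.38 (0.0287), and the call ended without vehicle 3, 4 or 5 or without pegtarazimod 1, 2 or 5 (up to 0.0895, without vehicle 3). Coq9 and Coq7 stood at 0.31 (0.136) and 0.25 (0.362).

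In the tricarboxylic acid cycle and pyruvate entry, 21 of 24 differences were positive (median 0.13). Of the 24, 1 rose (4.17%) and 1 fell, beside 2.5% and 2.39% of all genes. Ogdh, the oxoglutarate dehydrogenase subunit, rose by 0.37 (adjusted p 0.0290), and the call ended without vehicle 2, 3 or 4 or without pegtarazimod 1 or 2 (up to 0.0932, without vehicle 3). Pdp1, the phosphatase that activates pyruvate dehydrogenase, fell by 0.50 (adjusted p 0.0446). The call ended without the same arrays and without pegtarazimod 5 (up to 0.130, without vehicle 3), and under repeated quantile normalisation (0.0551) or centring on array medians (0.0525). Suclg1 and Pdha1 stood at 0.33 and 0.31 (adjusted p 0.0584 and 0.0588). Of 13 carriers, porins and uncouplers 1 rose, the mitochondrial creatine kinase Ckmt1 (0.43, adjusted p 0.0232), and the list's median was 0.14. Its call ended without vehicle 3 or 4 or without pegtarazimod 1 or 2 (up to 0.0721, without vehicle 3). Others of the list stood on both sides of 0, with Slc25a24 at 0.36 (0.0697) and Slc25a23 at −0.47 (0.0735), both carriers of ATP and phosphate.

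A list of 41 further assembly factors of complexes I to V did not include the 8 of complex I above. Its median was 0.08, with 31 positive differences. Of the 41, 1 rose (2.44%), beside 2.5% of all genes, and 0 fell, beside 2.39%. The one that rose was Ttc19, needed for complex III (0.36, adjusted p 0.0408). Its call ended without any array other than vehicle 1 and pegtarazimod 4 (up to 0.121, without vehicle 3). Bcs1l, which inserts the Rieske protein into complex III, stood at 0.43 (0.0540). Over 19 genes of protein import, chaperones and inner membrane organisation the median was 0.13 with 15 positive differences, and limma called 0. At an unadjusted p below 0.05, 2 of the 19 were higher, beside 9.31% of all genes. Chchd3, Phb2, Tomm20 and Immt stood between 0.16 and 0.22.

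Regulators of mitochondrial gene expression had no common direction: of 22, 12 differences were positive, the median was 0.01, 0 rose and 2 fell. Esrrg, an estrogen-related nuclear receptor, read 7.66, 7.25, 7.20, 7.14 and 7.32 in vehicle and 6.22, 6.79, 7.06, 6.23 and 6.34 in pegtarazimod. Every pegtarazimod array was below every vehicle array, and pegtarazimod 3 was the closest. Esrrg fell by 0.79 (SE 0.16, adjusted p 0.0138), and the call held without any 1 array.

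Nrf1, nuclear respiratory factor 1, read 8.16, 8.17, 8.10, 8.10 and 8.07 in vehicle and 7.78, 7.81, 7.81, 7.81 and 7.86 in pegtarazimod. The groups were far apart against a spread of 0.04 and 0.03 (SD). Nrf1 fell by 0.30 (SE 0.07, adjusted p 0.0331). The call ended without any vehicle array or without pegtarazimod 1, 2 or 3 (up to 0.0813, without vehicle 3), and under centring on array medians (0.0513).

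The coactivator Ppargc1a read 7.95, 7.34, 7.05, 7.05 and 6.49 in vehicle and 8.99, 7.82, 7.68, 7.14 and 6.79 in pegtarazimod. The groups overlapped, and the difference of 0.51 had a 95% interval of −0.23 to 1.25 (adjusted p 0.480). Its relatives Ppargc1b and Pprc1 stood at 0.15 (0.505) and −0.33 (0.119). Gabpa, the DNA-binding subunit of GABP, stood at −0.13 (0.491), Tfam, which packages and transcribes mitochondrial DNA, at 0.11 (0.575), and the mitochondrial helicase Twnk at 0.25 (0.199). Esrra was not analysed here.

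**Figure D5:**
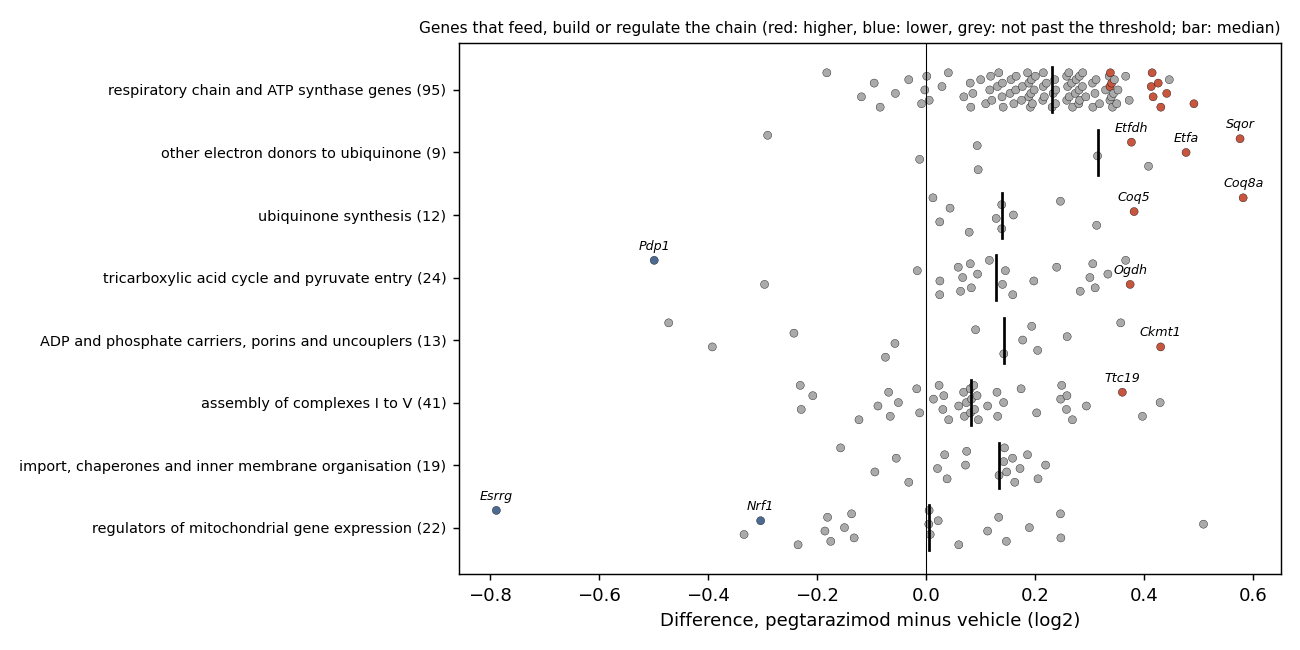
Each row is a gene list with its number of genes, and each point is 1 gene at its difference, pegtarazimod minus vehicle, in log2 units (horizontal axis); red points rose, blue points fell, grey points did not pass the adjusted threshold, vertical jitter has no meaning, and the bar is the list's median. The median is 0.23 for the respiratory chain and ATP synthase genes, 0.31 for other electron donors and 0.01 for regulators, where Esrrg and Nrf1 are the 2 blue points.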

How the data were processed

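RNA from 10 organoid cultures was measured on 10 single-colour arrays, 5 a group, with groups and replicate numbers from the labels. Each deposited value is the log2 expression of 1 probe set, obtained by the authors with oligo and RMA per the submitters' processing notes. Software versions, annotation and build are not given in the sources consulted. RMA corrects background, equalises array distributions and summarises probes. No detection calls were used, so a dim gene cannot be told from background.

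The table held 22203 probe sets: 19572 had 1 symbol in the platform annotation, 0 several, and 2631 were unnamed and left out. Each of 19505 genes was represented by its probe set with the highest mean (55 genes had several, none of them among the 95). All 19505 matched the gene table by identifier. No 2 arrays shared more than 2 identical gene values, and none was counted as a copy.

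The 2 groups were compared with lmFit and eBayes of limma 3.58.1 (R 4.3.3), without covariates. Benjamini-Hochberg adjustment ran over all 19505 genes, and 0.05 was the threshold. The fit was tested on simulated data. The genes, the function lists, the cell type markers and the tests were chosen with earlier results of these data known, so their counts and medians are descriptions and carry no test over a list. Values in every array are given for genes of the set past the threshold, for the gene with the smallest p of each class, for the 3 negative differences of smallest p and, as values or as the range in each group, for tissue-restricted isoforms. From each list up to 4 genes by smallest p were named, and Ppargc1a, Ppargc1b, Nrf1, Gabpa and Tfam whatever their p. Other genes of the set are named by level or difference. Summed marker levels are log2 of the sum of linear values. Promoter sequences came from RefSeq (GRCm38.p6), which had no entry for 17 of the 95 genes. Alternatives were 12 other settings and leaving out each of the 10 arrays. Python 3.11.15 with matplotlib 3.10.9 drew the figures.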

Additional observations from a re-analysis of the deposited data

Results flagged for a closer look

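In 2 of 48 groups of 5 arrays that were checked, 1 array stood apart from the other 4, with a gap to its nearest neighbour above 0.71 of the group's range; by chance about 1 in 20 groups would do so. Atp5o read 9.19 on vehicle 3 and 9.02 to 9.06 on the other vehicle arrays (gap 0.759 of the range), which places that vehicle array closest to the pegtarazimod arrays. The median deviation over complex I was −0.0897 on vehicle 5 and 0.01 to 0.03 on the other vehicle arrays (gap 0.836 of the range).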

How the results depend on the processing

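Of the 10 genes that rose, Sdhb and Uqcrq kept their call without any 1 array. Leaving out 1 array gave 2 to 17 genes of the set and 437 to 1245 of all genes past the threshold, so the count rests on single arrays, whereas the median difference was 0.20 to 0.26. The count was 24 without the dimmest 50% of genes (86 genes of the set tested, beside 13.3% of all genes called). It was 18 with an intensity trend and robust priors (18.9%, beside 5.77%). With a block for replicates 1 and 2 against 3 to 5 it was also 18 (18.9%, beside 9.33%), and over all genes 1820. Within replicates 3 to 5 it was 2 (2.11%, beside 3.34%). These shares of all genes count calls in either direction, and 1.84% of all genes rose within replicates 3 to 5. Within replicates 1 and 2 the median difference was 0.31. Cox8b turned to 0.28 within replicates 1 and 2, from −0.12. The causes were not tested. The other settings gave 7 to 13 genes of the set. Repeated quantile normalisation ended 4 calls (Cox4i1, Atp5c1, Cox6c and Atp5o).

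The labels give both groups the replicate numbers 1 to 5. Deviations from the group means correlated between same-numbered arrays at 0.299, 0.310, 0.0993, 0.227 and 0.130, the third below 0.1, so the numbers were not taken as a pairing. Pegtarazimod 1 to 4 each correlated best with the vehicle array of their own number, while pegtarazimod 5 did so with vehicle 3 (0.152) and vehicle 3 with pegtarazimod 4 (0.214). With the replicate block, 13 genes of the set and 1606 of all genes passed, Cox6c did not (adjusted p 0.0659), nor did Nrf1 (0.0545), and Ppargc1a passed (0.0288).

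Quantile normalisation hides a shift common to most genes, and low signal limits most of the tissue-restricted isoforms.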
